A study of Mus musculus with 6 samples.

Results

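The aryl hydrocarbon receptor (AHR) set comprised 9 genes of the 45777 in the deposited count table, found there by their symbols: the receptor Ahr, its partner Arnt, and the 7 target genes Ahrr, Tiparp, Cyp1a1, Cyp1a2, Cyp1b1, Nqo1 and Aldh3a1. Messenger RNA was sequenced from brown adipose tissue, which burns fuel to make heat, of male wild type C57Bl6/J mice. Of these mice, 3 were given phosphate-buffered saline (PBS) by injection into the abdominal cavity over 2 weeks and 3 were given ginsenoside Rb2, a saponin of ginseng root, in the same way. Whole tissue was extracted, so every value is a mixture of adipocytes, vessels, stroma and blood cells, and fewer cells of a type cannot be told apart from less RNA per cell. The members were chosen by their known place in the pathway, with results of the same comparison in view, among them the log2 fold change of Cyp1a1. The Cyp1a1 values are therefore a description, without a test. The adjusted p-values of the other members come from the same comparison and are not independent support.

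AHR is a ligand-activated transcription factor that rests in the cytosol with the chaperones HSP90 and p23 (Ptges3). When a planar aromatic compound such as dioxin, or a tryptophan metabolite, binds, it moves to the nucleus, pairs with ARNT and binds DNA at a short core, GCGTG. Its best known targets are P450 enzymes of the CYP1 family, which oxidize the ligands themselves, and AHRR and TIPARP, which feed back on the receptor. NQO1 and ALDH3A1 are detoxifying enzymes of the same battery, and Nqo1 is also a target of the oxidative stress factor NRF2.

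Total counts ran from 83642183 to 92666780 per library. Levels are given as CPM, counts scaled to a common library size with TMM factors, in the order PBS 1, 2 and 4, then Rb2 1, 3 and 4, the numbers being those of the table's columns. A count of 0 allows up to 3 counts, or 0.0307 to 0.0370 CPM depending on the library, and covers counting error only. Skeletal muscle transcripts differed between mice of a group (12 markers, summed level 8.09 to 6075 CPM with PBS and 2.33 to 359 CPM with Rb2, highest in PBS 1 and 2), and liver transcripts were high in Rb2 1 and 4. Brown fat markers were present in every library, with Ucp1, the uncoupling protein, at 2928 to 4770 CPM. Over all genes 16707 entered the test, and 890 passed as higher and 853 as lower with Rb2 at an adjusted p under 0.05 (edgeR quasi-likelihood test, Benjamini-Hochberg adjustment). With library size alone as the scaling the split was 492 higher and 779 lower, and with a correction for GC content and length 810 higher and 512 lower.

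The promoters of 4 targets are shown because these genes are well detected and did not move alike: Cyp1a1 and Nqo1 were lower after Rb2, Tiparp was not, and Cyp1b1 was at the same level in both groups within its spread. Each is the 250 bases before a start site, from RefSeq on GRCm38.p6, the assembly that mm10 stands for, read 5′ to 3′ on the gene's strand. Capitals mark the core GCGTG or, for a match on the other strand, CACGC.
Cyp1a1: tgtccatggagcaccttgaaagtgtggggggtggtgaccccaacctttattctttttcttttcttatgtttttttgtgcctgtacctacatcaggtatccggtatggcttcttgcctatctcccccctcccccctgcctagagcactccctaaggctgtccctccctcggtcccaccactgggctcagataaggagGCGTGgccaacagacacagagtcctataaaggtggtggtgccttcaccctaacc
Nqo1: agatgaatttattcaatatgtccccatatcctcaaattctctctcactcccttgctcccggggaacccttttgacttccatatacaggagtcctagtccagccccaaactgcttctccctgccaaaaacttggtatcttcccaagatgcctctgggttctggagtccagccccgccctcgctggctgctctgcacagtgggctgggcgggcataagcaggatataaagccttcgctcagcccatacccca
Tiparp: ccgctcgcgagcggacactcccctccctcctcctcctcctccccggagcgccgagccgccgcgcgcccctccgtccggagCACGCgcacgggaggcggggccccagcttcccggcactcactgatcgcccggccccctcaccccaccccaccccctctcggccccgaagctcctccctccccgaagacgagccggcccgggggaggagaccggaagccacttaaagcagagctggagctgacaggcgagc
Cyp1b1: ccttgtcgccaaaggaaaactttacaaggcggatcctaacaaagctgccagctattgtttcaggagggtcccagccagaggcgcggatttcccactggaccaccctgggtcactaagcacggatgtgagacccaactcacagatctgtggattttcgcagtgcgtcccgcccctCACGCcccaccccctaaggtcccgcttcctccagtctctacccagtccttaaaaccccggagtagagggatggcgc
The windows lie at chr9:57697363-57697612 on the plus strand (Cyp1a1), chr8:107403206-107403455 on the minus strand (Nqo1), chr3:65528197-65528446 on the plus strand (Tiparp) and chr17:79715062-79715311 on the minus strand (Cyp1b1).

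The Cyp1a1 window holds 1 core on the gene's strand, the Tiparp and Cyp1b1 windows hold 1 each on the other strand, and the Nqo1 window holds none. Promoter windows of 7 of the 9 genes were at hand. Among the rest Ahrr has 3 cores, Arnt 1 and Cyp1a2 none. Of all 32851 promoter windows of this length listed by RefSeq, 28.2% hold at least 1 core on either strand, so a match is common. The longer form TNGCGTG, which contains the core, is in 4.10% of all windows and among the set only in that of Ahrr. The antioxidant response element core of NRF2, searched as TGACNNNGC on both strands, is in 10.2% of all windows, 2 times in that of Arnt and in none of the others. These matches describe the letters of a short window only. The well-studied AHR enhancer of Cyp1a1 lies further upstream, outside the window printed here.

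Of the 9 genes, 6 had enough counts to be tested (Ahr, Arnt, Tiparp, Cyp1a1, Cyp1b1 and Nqo1). Ahrr, Cyp1a2 and Aldh3a1 stayed under the filter on low counts. Of the 5 tested genes other than Cyp1a1, Nqo1 fell and 4 did not pass the threshold. Over all tested genes 10.4% passed in either direction and 5.11% passed as lower. The fold changes of the tested targets did not all have the same sign. Those of Cyp1a1, Nqo1 and Cyp1b1 were below 0, and that of Tiparp was above 0, as were those of Ahr and Arnt. Cyp1b1 and Tiparp did not pass the threshold, so opposite changes among the targets were not shown.

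**Figure D1:**
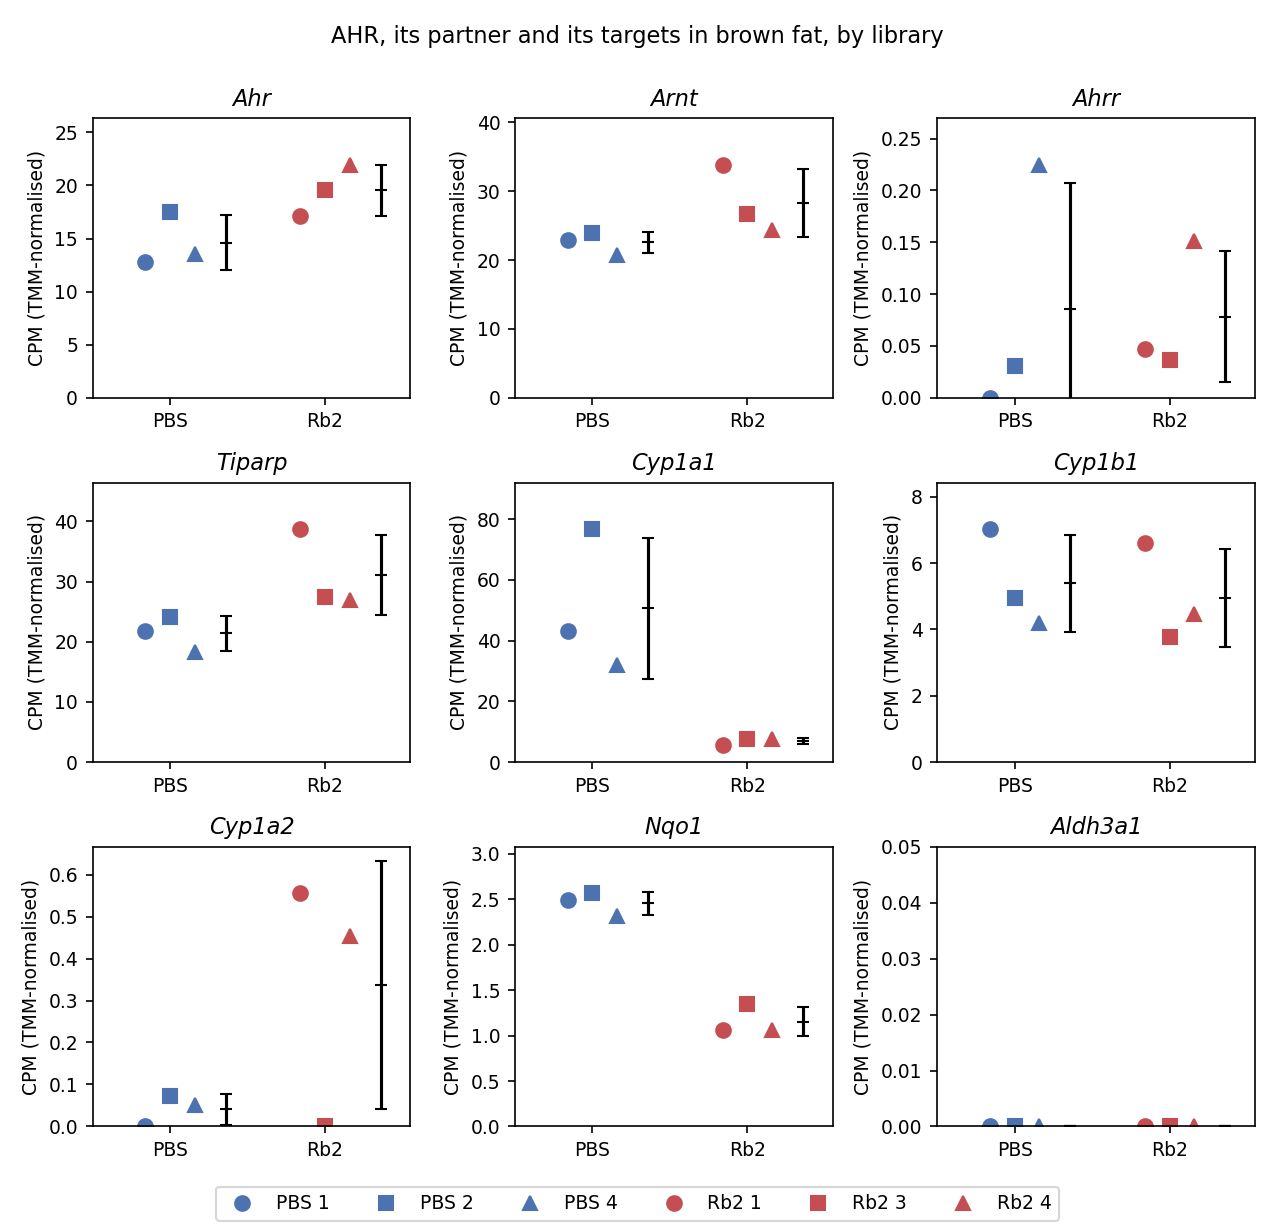
Level of each of the 9 genes (vertical axis, TMM-normalised CPM, a separate linear scale from 0 for each gene) in the PBS (blue) and Rb2 (red) libraries; the symbol shape gives the library and the black bar the mean ± SD of 3 libraries. Cyp1a1 and Nqo1 lie lower in every Rb2 library than in any PBS library, Arnt and Tiparp higher, and Aldh3a1 is at 0 throughout.

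Ahr, the receptor (gene 11622; chromosome 12, 35497979 to 35534989), was at 12.8, 17.5 and 13.6 CPM with PBS and at 17.1, 19.5 and 22.0 CPM with Rb2. The groups overlap, since PBS 2 lies above Rb2 1. The log2 fold change was 0.42 ± 0.16 (SE), which did not pass the threshold (edgeR adjusted p = 0.116). Arnt, the partner that AHR shares with the hypoxia-inducible factors (gene 11863; chromosome 3, 95434367 to 95497240), was at 23.0, 23.9 and 20.8 CPM with PBS and at 33.9, 26.7 and 24.4 CPM with Rb2. All 3 Rb2 libraries lie above the PBS libraries, with Rb2 4 only just so, and the log2 fold change of 0.33 ± 0.15 (SE) did not pass (edgeR adjusted p = 0.169). Of all tested genes 35.8% had groups that did not overlap, 18.2% with Rb2 higher and 17.6% with Rb2 lower. So the transcripts of the receptor and its partner were not found lower after Rb2.

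Tiparp, an ADP-ribosyltransferase that AHR induces and that represses AHR in turn (gene 99929; chromosome 3, 65528447 to 65555518), was at 21.8, 24.1 and 18.2 CPM with PBS and at 38.7, 27.5 and 26.9 CPM with Rb2. Every Rb2 library was above every PBS library, and Rb2 1 stood highest. The log2 fold change was 0.54 ± 0.17 (SE, edgeR adjusted p = 0.0751), just short of the threshold. It passed in the DESeq2 Wald test (adjusted p = 0.0309). With that correction for GC content and length, Tiparp being poor in G and C (40.4% of its longest transcript), it was 0.32 (edgeR adjusted p = 0.215). Its 5′ end shares 968 bases with the noncoding gene 4931440P22Rik, which had 26 to 57 counts per library against 1768 to 3280 for Tiparp.

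Ahrr, the AHR repressor, which competes for ARNT and is itself an AHR target (gene 11624; chromosome 13, 74211118 to 74292331), was barely detected. It had 0, 3 and 22 counts in the PBS libraries and 4, 3 and 14 in the Rb2 libraries. Most of the counts in each group came from the library numbered 4, and a difference between the groups was not detectable at this depth.

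Cyp1a1, the inducible P450 most used as a readout of AHR activity (gene 13076; chromosome 9, 57687928 to 57703824), was at 43.1, 76.7 and 32.1 CPM in the PBS libraries. In the Rb2 libraries it was at 5.63, 7.55 and 7.56 CPM. The PBS libraries spread widely, with PBS 2 the highest, whereas the Rb2 libraries lie close together. The lowest PBS library was 4.24 times the highest Rb2 library. The means were 50.6 ± 23.2 CPM with PBS and 6.92 ± 1.11 CPM with Rb2 (SD, n = 3 each), a 7.32-fold difference (log2 fold change -2.87 ± 0.35 SE). Ordered from the most negative fold change, Cyp1a1 stood at place 169 of the 16707 tested genes. Without PBS 2, the library with the most Cyp1a1, the log2 fold change was -2.45, and without PBS 4 it was -3.13. Without both PBS 1 and PBS 2 it was -2.21, a fit in which the spread of the lone PBS library is taken from the Rb2 libraries. Within PBS, Cyp1a1 followed the order of the summed skeletal muscle markers (1899, 6075 and 8.09 CPM in PBS 1, 2 and 4). Within Rb2 the muscle sums were 2.33, 359 and 216 CPM in Rb2 1, 3 and 4. Rb2 1 was the lowest in both, and Rb2 3 and 4 were too close in Cyp1a1 to be ordered. With the muscle markers as a covariate the log2 fold change of Cyp1a1 was -2.51. The part of muscle in it was not tested further.

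Cyp1b1, a CYP1 enzyme of stromal and vascular cells (gene 13078; chromosome 17, 79706940 to 79715061), was at 7.03, 4.94 and 4.20 CPM with PBS and at 6.60, 3.78 and 4.46 CPM with Rb2. The groups overlap almost entirely, with PBS 1 and Rb2 1 the high library of each. The log2 fold change was -0.12 ± 0.26 (SE, edgeR adjusted p = 0.783), smaller than its standard error. It changed sign without PBS 1 (0.11) and without Rb2 3 (0.04).

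Cyp1a2, the liver-enriched member of the family (gene 13077; chromosome 9, 57676937 to 57683655), had 0, 7 and 5 counts in the PBS libraries and 47, 0 and 42 in the Rb2 libraries. Its counts in Rb2 1 and 4 were thus above all PBS libraries, and Rb2 3 was at 0, so the groups overlap. The same 2 libraries carried transcripts of liver. Alb, serum albumin, was at 1.89, 0.527 and 1.22 CPM with PBS and at 23.7, 1.22 and 21.4 CPM with Rb2. Summed over 8 hepatocyte markers the level was 3.41 to 6.43 CPM with PBS and 40.7, 3.42 and 36.7 CPM with Rb2. Of these markers Tat, an enzyme of tyrosine breakdown, was at 0 in the PBS libraries and in Rb2 3. For every 1000 counts of Alb there were 23.5 counts of Cyp1a2 in Rb2 1 and 21.2 in Rb2 4. With PBS this ratio was 0, 137 and 42.0, from few counts of either gene. Cyp3a11, a P450 of liver and gut, had 154 and 138 counts per 1000 of Alb in Rb2 1 and 4. Its ratio was 129 in Rb2 3, and 124, 157 and 50.4 with PBS. Rb2 3, with 101 Alb counts, had no Cyp1a2 count, and PBS 2 and PBS 4 had 7 and 5 Cyp1a2 counts beside 51 and 119 of Alb. The part of liver RNA in the Cyp1a2 counts was not tested beyond these values.

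**Figure D2:**
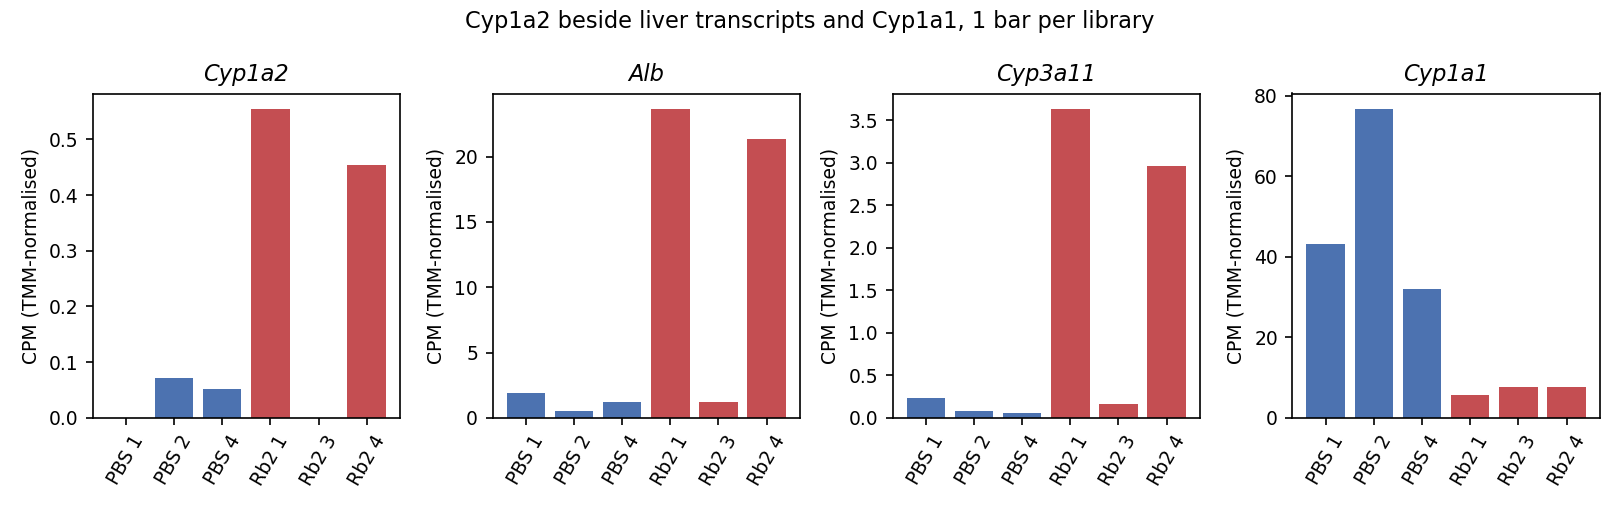
Level of Cyp1a2, of the liver transcripts Alb and Cyp3a11, and of Cyp1a1 (vertical axes, TMM-normalised CPM, linear from 0), with 1 bar for each PBS (blue) and Rb2 (red) library. Cyp1a2, Alb and Cyp3a11 stand high in Rb2 1 and Rb2 4 and low in Rb2 3, whereas Cyp1a1 is low in all 3 Rb2 libraries.

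Cyp1a1 and Cyp1a2 lie head to head on chromosome 9, with 13958 bases between the start sites of their promoter windows. The Cyp1a1 window lies inside the span listed for that gene (57687928 to 57703824), which reaches nearer to Cyp1a2. The printed windows of Nqo1, Tiparp and Cyp1b1 adjoin the listed ends of their genes. The longest GENCODE transcripts of Cyp1a1 and Cyp1a2 were cut into all their overlapping words of 50 bases. Of 2648 words of Cyp1a1 and 1891 of Cyp1a2, 94 were shared. A read that lies wholly within shared sequence cannot be assigned to one gene by that sequence alone. The library with the most Cyp1a1 (PBS 2, 7416 counts) had 7 counts of Cyp1a2. The other flank of Cyp1a1 is taken by Edc3, an mRNA decapping factor (chromosome 9, 57708540 to 57750163). Edc3 fell as well, from 14.8, 17.4 and 13.7 CPM with PBS to 8.51, 8.19 and 8.31 CPM with Rb2 (edgeR log2 fold change -0.87 ± 0.13 SE, edgeR adjusted p = 0.00872). It was singled out after its values were seen. Within 100000 bases of Cyp1a1 the tested genes Scamp2, Ulk3, Csk, Clk3, Gm32510 and Arid3b did not pass, with log2 fold changes from -0.60 to 0.41.

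Nqo1, a quinone reductase (gene 18104; chromosome 8, 107388225 to 107403205), was at 2.49, 2.56 and 2.32 CPM with PBS and at 1.06, 1.35 and 1.06 CPM with Rb2. The PBS libraries lie close together and well above the Rb2 libraries, the lowest being 1.72 times the highest Rb2 library. Nqo1 fell 2.13-fold (log2 fold change -1.09 ± 0.22 SE, edgeR adjusted p = 0.0204). The fold change stayed between -1.21 and -1.03 whichever library was left out, but the call was lost without PBS 1 (adjusted p = 0.0701), PBS 2 (0.0857) or Rb2 1 (0.0656). Aldh3a1, an aldehyde dehydrogenase known from cornea and from dioxin-treated liver (gene 11670; chromosome 11, 61208510 to 61218418), had 0 counts in all 6 libraries.

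**Figure D3:**
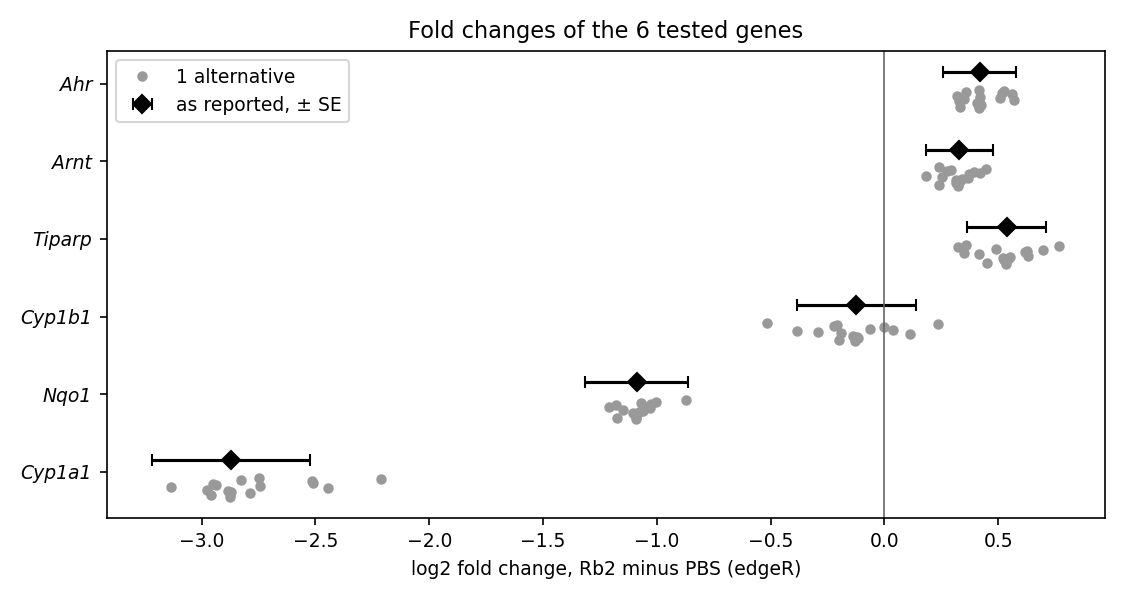
Log2 fold change, Rb2 minus PBS (horizontal axis), of the 6 tested genes; the black diamond with its bar is the reported value ± SE, and each grey point is the value under 1 alternative setting or with libraries left out. Cyp1a1 and Nqo1 stay below 0 and Ahr, Arnt and Tiparp above 0 in all settings drawn, and Cyp1b1 lies on both sides.

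Levels can be compared between genes only per length, here as CPM per kilobase of the longest GENCODE transcript. With PBS, Cyp1a1 was the most abundant of the set at 18.8 ± 8.61 CPM per kilobase (SD, n = 3). Arnt (5.21 ± 0.37) and Tiparp (5.10 ± 0.70) followed with ranges that overlap, then Ahr (2.64 ± 0.46), Nqo1 (1.58 ± 0.081) and Cyp1b1 (1.05 ± 0.29). In the Rb2 libraries the order was Tiparp at 7.41 ± 1.59 CPM per kilobase, Arnt at 6.55 ± 1.14, Ahr at 3.52 ± 0.44, Cyp1a1 at 2.56 ± 0.41, Cyp1b1 at 0.965 ± 0.287 and Nqo1 at 0.744 ± 0.106. Cyp1a1 thus stood above its receptor in every PBS library and below it in every Rb2 library. Among neighbours in that second order Tiparp overlaps with Arnt, and Cyp1b1 with Nqo1.

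Other genes of the pathway were read from 6 lists of 83 genes in all, of which 62 were tested, 3 rose and 4 fell. The median log2 fold change over these 62 genes was -0.04, beside -0.01 over all tested genes. Of all tested genes 5.33% rose and 5.11% fell. Of the 11 chaperones and coactivators of AHR none passed the threshold (median -0.05). Med1, a Mediator subunit, was at 0.45 (edgeR adjusted p = 0.0556), and Ncoa3, a steroid receptor coactivator, at -0.32 (edgeR adjusted p = 0.120).

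Of 10 tested relatives of AHR and ARNT in the bHLH-PAS family, 1 rose and 2 fell (median -0.08). Arntl, which encodes the clock activator BMAL1, fell from 11.2, 11.7 and 11.0 CPM to 2.74, 4.75 and 2.59 CPM (log2 fold change -1.75 ± 0.23 SE, edgeR adjusted p = 0.00549). Npas2, which can stand in for CLOCK beside BMAL1, fell by 2.03 on the log2 scale (edgeR adjusted p = 0.00426). Arntl2, a close relative of BMAL1, rose by 1.18 (edgeR adjusted p = 0.0162), but did not pass without PBS 1 (0.0695), PBS 2 (0.0675) or Rb2 1 (0.0544). All 3 belong to the circadian clock, and the hypoxia-inducible factor genes Hif1a (0.40, adjusted p = 0.126) and Epas1 (-0.22, adjusted p = 0.310) did not pass.

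Among 13 tested genes of 19 that are reported AHR targets beyond the set, 1 rose and none fell (median -0.20). The 1 was Selenbp1, a selenium-binding methanethiol oxidase, which went from 29.5, 31.7 and 34.0 CPM to 49.7, 42.3 and 56.0 CPM (log2 fold change 0.63 ± 0.14 SE, edgeR adjusted p = 0.0228). It did not pass without PBS 1 (0.0907), PBS 2 (0.0932) or Rb2 1 (0.0656), with the muscle covariate (0.0541) or with library size alone (0.0676). Ereg and Serpinb2 had no counts in any library.

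Of 17 tested genes of the NRF2 pathway other than Nqo1, 2 fell and none rose (median -0.11). Both encode small MAF proteins, DNA-binding partners of NRF2. Mafg, which encodes another small MAF protein, did not pass (log2 fold change -0.11, edgeR adjusted p = 0.617). Mafk fell from 23.7, 26.0 and 21.6 CPM to 11.8, 9.59 and 12.2 CPM (log2 fold change -1.09 ± 0.14 SE, edgeR adjusted p = 0.00537). Maff fell by 1.93 on the log2 scale (edgeR adjusted p = 0.0120), and did not pass without Rb2 1 (0.0537) or without Rb2 3 (0.05004). Nfe2l2, which encodes NRF2 and like Mafg is named here outside the rule for list genes, had a log2 fold change of 0.24 (edgeR adjusted p = 0.181).

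Enzymes of the tryptophan-kynurenine pathway make or remove AHR ligands. Of 12, 6 were tested and 1 rose (median 0.29): Kyat3, a kynurenine aminotransferase, went from 28.4, 30.2 and 36.9 CPM to 52.5, 52.8 and 55.4 CPM (log2 fold change 0.75 ± 0.13 SE, edgeR adjusted p = 0.0122). It did not pass without PBS 1 (0.0587) or PBS 2 (0.0623). Tdo2, the tryptophan dioxygenase of liver, had 31 counts in Rb2 1 and 48 in Rb2 4 against 2, 0 and 0 with PBS and 0 in Rb2 3, the libraries in which Cyp1a2 and Alb were high. Of 6 tested genes of the list of CAR and PXR, which are other xenobiotic receptors, with their P450 targets and electron donors, none passed (median 0.24). Cyp3a11 was at 4.17 ± 1.29 SE (edgeR adjusted p = 0.107), again with Rb2 1 and 4 high, and Cyb5r3, a cytochrome b5 reductase, at -0.30 (edgeR adjusted p = 0.140).

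**Figure D4:**
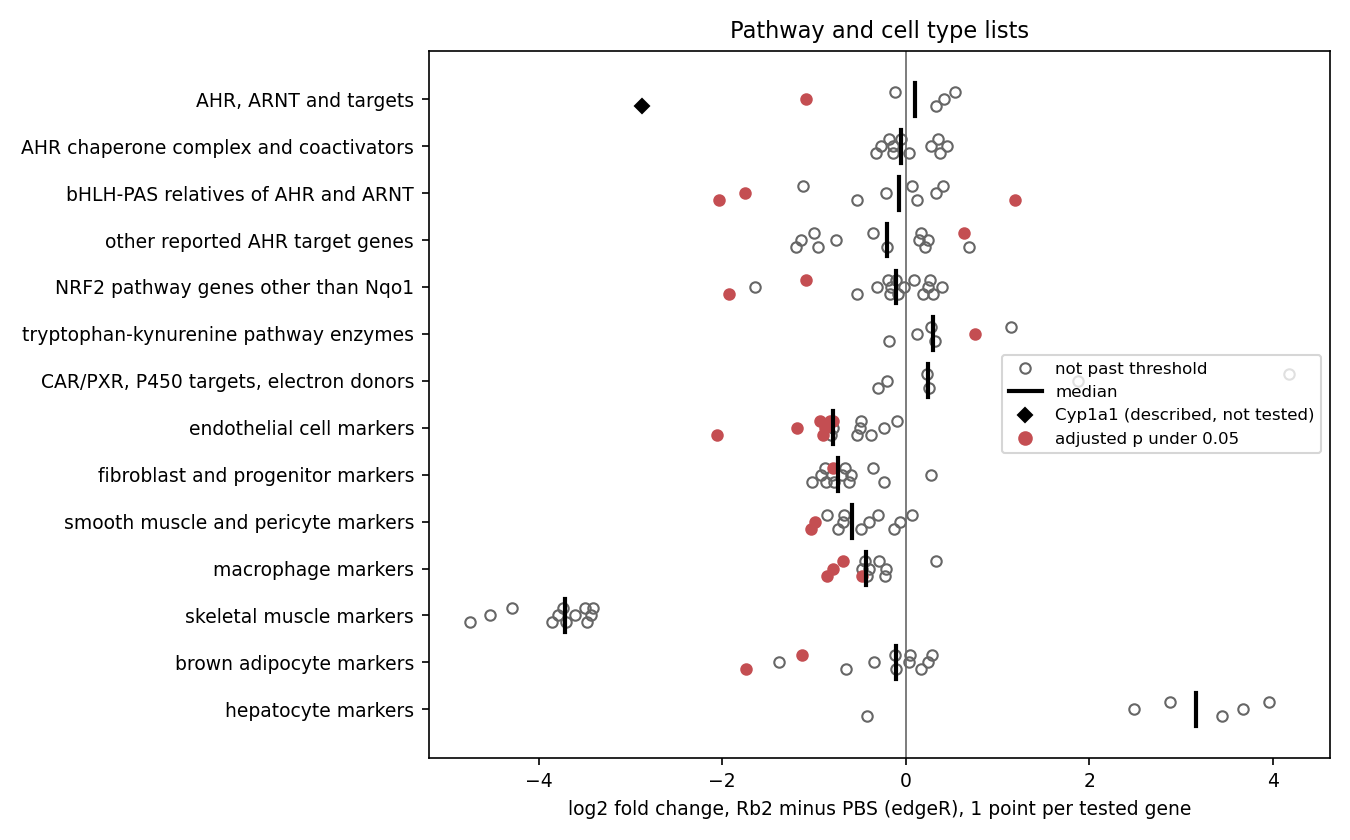
Log2 fold change, Rb2 minus PBS (horizontal axis), of each tested gene, arranged by list; red points passed an adjusted p of 0.05, open points did not, black bars are medians and the black diamond is Cyp1a1. Of the 62 genes tested in the 6 pathway lists, 3 rose and 4 fell, and the endothelial and stromal markers lie mostly below 0.

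Endothelium is one of the sites where Cyp1a1 is inducible. Of 15 endothelial markers 7 fell and none rose (median -0.80), where 5.11% of all tested genes fell (median -0.01 over all). Their summed level was 1725 to 1979 CPM with PBS and 949 to 1429 CPM with Rb2, a 1.60-fold difference of the means, and none was at 0. Cldn5, a tight junction protein (-2.05, edgeR adjusted p = 0.00258), Eng (-1.18), Sox17 (-0.82) and Robo4 (-0.88) led the list. The number that fell was 4 without PBS 1, 2 without PBS 2 and 10 without Rb2 4. Per 1000 CPM of endothelial markers, Cyp1a1 stood at 25.0, 38.7 and 17.3 CPM with PBS. With Rb2 it stood at 5.93, 6.85 and 5.29 CPM. For Nqo1 the same ratio was 1.44, 1.30 and 1.25 with PBS and 1.12, 1.22 and 0.741 with Rb2. Both ratios were chosen after the values were seen, and the part of endothelium in either change was not tested.

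Of all tested genes 5.11% passed as lower with Rb2, and their median log2 fold change was -0.01. Among markers of other cells, 1 of 14 fibroblast markers passed as lower (Gsn, -0.80), a share near that over all genes. Their median was -0.74, with 13 below 0 and 1 above. The summed level was 1876 to 2697 CPM with PBS and 1203 to 1723 CPM with Rb2, a 1.62-fold difference of the means. Of 12 smooth muscle and pericyte markers 2 passed as lower (Kcnj8, -1.03, and Mcam, -0.99). Their median was -0.58, and the summed level 1024 to 1187 CPM with PBS and 830 to 911 CPM with Rb2. Of 12 macrophage markers 4 passed as lower (C1qc, C1qb, C1qa and Csf1r, -0.86 to -0.48). Their median was -0.43, and the summed level 123 to 156 CPM with PBS and 84.4 to 113 CPM with Rb2. In both lists 11 markers were below 0 and 1 above. Of the brown adipocyte markers 2 of 12 fell (Prdm16, -1.13, and Elovl3, -1.74), with a median of -0.11. Their summed level was 15819 to 16959 CPM with PBS and 12718 to 17113 CPM with Rb2. None of the 12 skeletal muscle markers passed (Mb, -3.47, edgeR adjusted p = 0.322, and Myh2, -4.53, edgeR adjusted p = 0.325), nor did any of the 6 tested hepatocyte markers (Alb, 3.68, edgeR adjusted p = 0.154, and Ttr, 3.44, edgeR adjusted p = 0.159). Without PBS 1 the calls were 0 for fibroblast, 0 for smooth muscle and pericyte, 1 for macrophage and 1 for brown adipocyte markers, and without PBS 2 they were 0, 1, 1 and 1. Leaving out Rb2 1, and likewise Rb2 3, gave 0 fibroblast, 1 smooth muscle and 1 macrophage marker. With the correction for GC content and length 1 fibroblast, 2 smooth muscle, 0 macrophage and 3 brown adipocyte markers passed. With the muscle covariate these calls were 0, 2, 1 and 3. Without PBS 4 there were 2 fibroblast calls and without Rb2 4 there were 8. Without Rb2 3, the Rb2 library low in liver transcripts, 6 hepatocyte markers and 3 brown adipocyte markers passed. The part of these cell types in the changes of Cyp1a1 and Nqo1 was not tested further.

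Over the 6 libraries, and among 12606 tested genes with a mean of at least 1 CPM, the genes whose log2 CPM followed that of Cyp1a1 most closely were Dact3 (Pearson r = 0.997), Kcna5 (0.996), Gm8325 (0.996), Sh3bp4 (0.995) and Antxr1 (0.994). All of them were highest in PBS 2, as Cyp1a1 was, and lower in the 3 Rb2 libraries. Their own log2 fold changes were smaller, from -1.18 for Kcna5, a voltage-gated potassium channel, to -0.34 for Sh3bp4. The genes closest to Cyp1b1 were Rc3h2 (r = 0.989), Mid2 (0.987), Parp11 (0.974), Slk (0.966) and BC067074 (0.962), which were high in PBS 1 and Rb2 1 as Cyp1b1 was. With 6 libraries and this many genes searched, these values describe likeness only.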

How the data were processed

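Whole-tissue RNA of 6 mice, 3 per group, was made into strand-marking, poly(A)-selected libraries, per the labels' protocols. The authors deposited 1 table of raw read counts per gene with NCBI gene IDs, whole numbers that are not normalized. Trimmomatic, HISAT2, Bowtie2, StringTie and mm10 are named in the submitters' processing notes. Their versions and roles, the counting program and its use of strand are not stated in the sources used here. Column numbers (1, 2 and 4; 1, 3 and 4) cannot be tied to the titles' replicate numbers.

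Counts were tested with edgeR 4.0.16 (R 4.3.3; quasi-likelihood F test, TMM, robust dispersions, default filter with a count minimum of 10 and a total of 15) over all genes, with Benjamini-Hochberg adjustment and a threshold of 0.05. SEs were derived as the fold change (log2) over the root of the F statistic. The scripts were tested on simulated data. CPM uses TMM library sizes. Libraries correlated with r from 0.920 to 0.979 (log2 CPM), so none was a duplicate. Promoters and positions are RefSeq GRCm38.p6, and transcript lengths GENCODE M21.

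The genes and the 13 lists (6 pathway, 7 cell type) were chosen with earlier results of these data known. Named from each list were up to 4 members past the threshold with the smallest p, or else the first 2. Ptges3, Hif1a, Epas1, Ereg, Serpinb2, Mafg, Nfe2l2, Tdo2, Tat and Ucp1 are named outside this rule. Genes like Cyp1a1 and Cyp1b1 were the 5 with the highest r. Alternatives were DESeq2 1.42.0 (size factors, Wald test), limma 3.58.1 (voom), library size alone, no filter, a count minimum of 50, each library left out, a block on shared column numbers, the mean log2 CPM of muscle markers as a covariate, and an offset for GC content and length (splines with 5 degrees of freedom; 94.4% of tested genes). Leaving out PBS 1 and 2, or Rb2 1 and 4, was chosen after seeing the data.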

Additional observations from a re-analysis of the deposited data

How the results depend on the processing

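Cyp1a1, Nqo1, Ahr, Arnt and Tiparp kept the sign of their fold changes under every alternative run. Cyp1b1 reversed without PBS 1 (0.11), without Rb2 3 (0.04) and without PBS 1 and 2 (0.24); its cause was not tested. With 1 library left out the log2 fold change ranged from -3.13 to -2.45 for Cyp1a1, -1.21 to -1.03 for Nqo1, 0.35 to 0.63 for Tiparp, 0.32 to 0.57 for Ahr, 0.18 to 0.42 for Arnt and -0.38 to 0.11 for Cyp1b1. Without PBS 1 and 2 Cyp1a1 was at -2.21 and Nqo1 at -1.0 (adjusted p = 0.351), and without Rb2 1 and 4 Nqo1 was at -0.87 (adjusted p = 0.179); these fits have fewer samples. Tiparp passed in the DESeq2 Wald test (0.53).

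The 1743 genes called became 303 to 2269 with 1 library left out, 3120 in the DESeq2 Wald test, 3392 at an adjusted p under 0.1, 892 with the muscle covariate and 197 without Rb2 1 and 4. Without PBS 1 and 2 edgeR called 0, with 2063 genes at an unadjusted p under 0.05. In the 6 pathway lists, with 3 higher and 4 lower, leaving out 1 library gave 1 to 6 higher and 3 to 6 lower, and the DESeq2 Wald test gave 6 higher. Without PBS 1 and 2 there were 0 of each, and without Rb2 1 and 4 there were 0 higher and 2 lower.

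The replicate block could use only the column numbers that both groups carry (1 and 4), which cannot be tied to the titles. It called 96 genes, with 2 lower in the pathway lists and Nqo1 at -1.18 (adjusted p = 0.212). Deviations of libraries sharing a number correlated at -0.20 (number 1) and -0.22 (number 4), so the numbers were not taken to pair mice. The share of promoters with a GCGTG core was 32.4% with the 50 bases after the start site included. Depth limits Ahrr, Cyp1a2 and Aldh3a1, with at most 47 counts in a library.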
